A study of Rattus norvegicus with 18 samples.

Results

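The 10 genes described here belong to the circadian clock or are driven directly by it: Dbp, Hlf, Tef, Nr1d1, Nr1d2, Per1, Per2, Bhlhe40, Bhlhe41 and Npas2. They were measured in rat brain on oligonucleotide expression arrays, where a gene is read by 1 or more probe sets, each a group of short probes against the same transcript. All probe sets to which the platform annotation gives only 1 of these symbols were taken, which made 18 of the 31099 probe sets and 10 of 14218 named genes. Dbp, Nr1d1, Per1, Bhlhe40, Bhlhe41 and Npas2 had a single probe set, Hlf had 4, Tef and Nr1d2 had 3 each, and Per2 had 2. The brightest probe set of each gene over all arrays is given below unless another is named.

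The study set rats under chronic immobilization stress, in which an animal is repeatedly restrained, against handled rats that were not stressed. RNA from amygdala, hippocampus and cortex was put on 18 arrays, 3 in each of the 6 groups. The labels give no strain, sex, age, stress schedule or hour of tissue collection, and the hour bears on the level of every gene described here. Within a group the array titles differ only in the closing number of a code, e1_le1 to e1_le3, that is not explained. Whether a group's arrays stand for separate rats, pools or repeat preparations is not stated, so p-values here reflect array-to-array spread that could be technical in origin. The labels also leave unsaid if 1 rat gave all 3 regions. A further label field says amygdala for all 18 arrays, and the region was taken from the titles and descriptions, which carry it array by array.

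In the clock of mammalian cells, the transcription factor BMAL1 pairs with CLOCK or with its relative NPAS2 and switches on genes through E-boxes, short DNA elements in their promoters. Among those genes are the Period and Cryptochrome repressors, which shut the pair off, the REV-ERB nuclear receptors, which repress Bmal1, and the DEC proteins, which compete for the E-box. DBP, HLF and TEF are basic leucine zipper proteins that carry the rhythm onward to output genes through D-boxes. In forebrain these genes cycle with the day, and several of them also respond to glucocorticoid hormone and to neuronal activity.

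A minority of these genes differed between stress and handled arrays, and by modest amounts. Averaged over the 3 regions, 3 of the 10 genes were higher after stress, namely Dbp, Nr1d2 and Bhlhe41, and Hlf was lower by its brightest probe set. Dbp was the most changed of them, at 1.3 to 1.42 times the handled mean intensity depending on the region. The Period genes, Nr1d1, Tef, Bhlhe40 and, on average, Npas2 did not pass the test. Background rates in the same test were 1.59% of 18625 probe sets higher and 3.07% lower. The 10 genes were chosen with earlier results of these data known. Shares over all probe sets are therefore given here and below for scale and do not test the set. The median averaged log2 change of the 10 genes was 0.109 against 0.0065 over all probe sets tested.

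The promoters of the genes that moved on average over the regions are shown with that of Bhlhe40, a close relative of Bhlhe41 that did not pass. The letters a clock factor could read can thus be seen beside the values. That of Npas2, which passed in the amygdala only, was searched but is not shown. The RefSeq promoter table for the GRCr8 assembly, which holds 250 bases before and 50 after each start, had an entry for 9 of the 10 genes, with 2 starts for Nr1d1, and Hlf was not matched. Capitals mark a match, on either strand, to the E-box CACGTG or to the REV-ERB and ROR core AGGTCA. Each is read 5′ to 3′ on the strand of the gene.
Dbp, chr1:105312006-105312305, plus strand: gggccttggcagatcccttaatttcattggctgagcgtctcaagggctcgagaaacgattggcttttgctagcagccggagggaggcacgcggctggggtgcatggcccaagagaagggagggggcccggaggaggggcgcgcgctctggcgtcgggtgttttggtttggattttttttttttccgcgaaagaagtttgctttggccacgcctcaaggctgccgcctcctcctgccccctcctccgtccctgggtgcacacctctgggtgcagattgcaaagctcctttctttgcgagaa
Nr1d2, chr15:9954784-9955083, plus strand: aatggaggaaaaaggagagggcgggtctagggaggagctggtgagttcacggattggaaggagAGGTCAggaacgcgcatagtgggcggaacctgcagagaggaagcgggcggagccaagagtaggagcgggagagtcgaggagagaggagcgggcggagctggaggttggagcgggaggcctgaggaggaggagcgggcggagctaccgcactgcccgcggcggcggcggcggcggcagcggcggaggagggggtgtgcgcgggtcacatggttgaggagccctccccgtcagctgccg
Bhlhe41, chr4:180569306-180569605, minus strand: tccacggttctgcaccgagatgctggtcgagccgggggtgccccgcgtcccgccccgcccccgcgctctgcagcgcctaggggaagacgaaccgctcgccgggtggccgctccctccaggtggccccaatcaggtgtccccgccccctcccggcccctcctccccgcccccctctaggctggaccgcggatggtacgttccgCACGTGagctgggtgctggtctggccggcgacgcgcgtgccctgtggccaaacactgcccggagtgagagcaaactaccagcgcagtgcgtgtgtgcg
Bhlhe40, chr4:143174200-143174499, plus strand: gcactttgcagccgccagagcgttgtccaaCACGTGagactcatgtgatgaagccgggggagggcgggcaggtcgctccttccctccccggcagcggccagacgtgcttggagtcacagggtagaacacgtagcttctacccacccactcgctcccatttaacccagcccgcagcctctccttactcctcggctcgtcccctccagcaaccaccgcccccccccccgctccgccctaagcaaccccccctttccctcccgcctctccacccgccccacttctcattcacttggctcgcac

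The searched letters were found both in genes that moved and in genes that did not. CACGTG stood in the windows of Bhlhe41, Bhlhe40, Tef and the second start of Nr1d1. Among all 33469 promoters in the table, 6.42% held it. AGGTCA was found only in the window of Nr1d2 among these genes, against 16.2% of all promoters. The D-box TTANGTAA was found only in that of Per2, against 2.24%. The cAMP element TGACGTCA, held by 1.83% of all promoters, was in none of the 10 windows. Dbp, Per1, Npas2 and the first start of Nr1d1 held none of the searched motifs, which says only that those letters are not in these 300 bases. No window held more than 1 match, so no matches overlapped.

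Values are scaled linear intensities in arbitrary units. Changes are differences of log2(intensity + 16) between stress and handled arrays, given with their standard errors from a linear model over all 18 arrays (limma), and p-values are two-sided and adjusted by Benjamini-Hochberg over the 18625 probe sets whose mean passed a filter on dim signals. A gene is said to have risen or fallen where the adjusted p was under 0.05. Of the 18 probe sets, 16 passed the filter, which lay at an intensity of about 30.1, and each of the 10 genes kept its brightest one. Because the regions may share rats, the p of the averaged effect assumes an independence that the labels do not state.

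Dbp, the output factor with a wide daily swing in many tissues, was higher after stress in each region. In the amygdala its stress arrays read 370.5, 447.3 and 387.7 and its handled arrays 307.2, 316.2 and 301.5. In the hippocampus the stress arrays read 256.7, 296.7 and 252.9 against 184.2, 185.7 and 197.5. In the cortex they read 360.5, 431.8 and 389.1 against 267.1, 311.4 and 305.1. All 9 stress arrays lay above every handled array of their own region. Dbp rose by 0.36 ± 0.09 on the log2 scale in the amygdala (adjusted p = 0.0344) and by 0.47 ± 0.09 in the hippocampus (adjusted p = 0.02), which are ratios of mean intensity of 1.3 and 1.42. The cortical difference of 0.40 ± 0.09, a ratio of 1.34, was of the same size and missed the threshold at an adjusted p of 0.054. The averaged change was 0.41 ± 0.05 (95% interval 0.301 to 0.52, adjusted p = 4.00e-05).

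The regional calls of Dbp depended on single arrays while the averaged call did not. Without amygdala stress array 2, the brightest of its group, the amygdala difference was 0.29 with an adjusted p of 0.175, and without amygdala handled array 1, 2 or 3 the adjusted p was 0.0969, 0.0725 or 0.136. Without hippocampus stress array 2 the hippocampal difference was 0.40 with an adjusted p of 0.124, and without hippocampus handled array 1 or 2 the adjusted p was 0.0843 or 0.0701. The cortical difference passed when amygdala stress array 1 or 2 or hippocampus stress array 2 was left out, with adjusted p-values of 0.0295, 0.0364 and 0.044. None of the 3 differences between regional stress effects passed for Dbp, and the widest of them, amygdala against hippocampus, was -0.11 (95% interval -0.377 to 0.159).

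**Figure D1:**
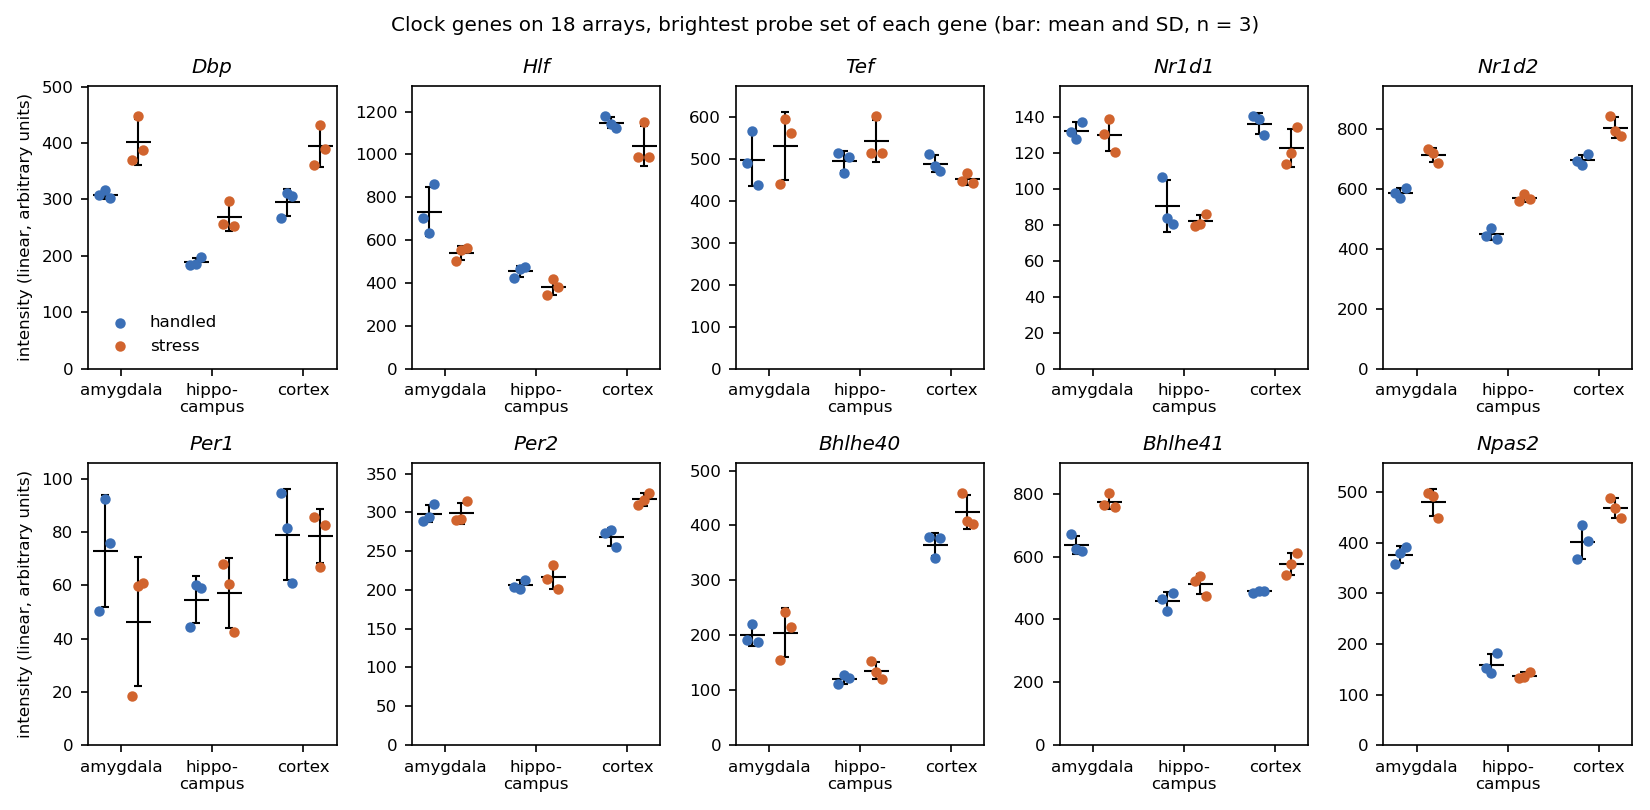
Linear intensity (arbitrary units) of the brightest probe set of each of the 10 clock genes on all 18 arrays, with handled arrays in blue, stress arrays in orange, and a bar for the mean and SD of 3 arrays. Dbp and Nr1d2 have every stress array above every handled array of the same region, Hlf is lower in the amygdala and hippocampus, and the stress arrays of Npas2 lie above the handled ones in amygdala and cortex but not in hippocampus.

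Hlf, another leucine zipper output factor, gave a lower reading after stress by its brightest probe set, and its next 2 probe sets did not pass. The amygdala stress arrays read 501.5, 555.0 and 564.6 and the handled arrays 703.3, 634.2 and 859.8, a fall of 0.42 ± 0.09 on the log2 scale (adjusted p = 0.0138). In the hippocampus the stress arrays, at 344.3, 420.1 and 379.8, all lay below the handled arrays, at 424.1, 465.1 and 472.7, with a difference of -0.24 ± 0.09 that did not pass (adjusted p = 0.327). In the cortex the ranges overlapped, from 986.8 to 1149 after stress and from 1125 to 1178 in handled rats (difference -0.14, adjusted p = 0.659). The averaged difference was -0.27 ± 0.05 (adjusted p = 0.00415).

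The next 2 probe sets of Hlf in order of brightness passed the filter, and none of their stress contrasts passed the test. The brighter of them differed by 0.10, 0.04 and -0.06 in amygdala, hippocampus and cortex, with an averaged change of 0.03 ± 0.05 (95% interval -0.071 to 0.122). The other differed by 0.14, -0.10 and -0.04, with an averaged change of -0.00 ± 0.06 (95% interval -0.122 to 0.116). Neither interval reaches the -0.27 of the brightest probe set. The fourth was dim, lay under the filter and was not tested. It read 12.4, 3.67 and 13.1 after stress against 23.1, 20.0 and 22.2 in handled amygdala, and 31.0, 15.7 and 19.1 against 37.0, 35.0 and 31.1 in cortex, without overlap in either. In the hippocampus it read 13.4, 13.9 and 1.82 against 28.6, 13.7 and 5.50, which overlapped. Of the 3 probe sets tested for Hlf, 1 fell. That fall was lost in the amygdala without stress array 1 (adjusted p = 0.0563) and without handled array 3, the highest (difference -0.30, adjusted p = 0.134).

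Tef, the remaining member of this family, did not pass in any region. Its amygdala arrays ran from 439.1 to 593.4 after stress and from 438.0 to 565.0 in handled rats. In the hippocampus all stress arrays (513.5, 600.7 and 514.2) lay above the handled arrays (512.5, 466.5 and 504.3), though by as little as 1 unit, and in the cortex all stress arrays (445.7, 465.7 and 441.2) lay below them (510.6, 481.6 and 470.8). The averaged change was 0.04 ± 0.06 (95% interval -0.083 to 0.153). The other probe sets of Tef were dim, with group means from 29.6 to 101.4, and none of their stress contrasts passed.

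Nr1d2, which encodes the repressor REV-ERB beta, was higher after stress with the smallest standard errors of the 10 genes. The amygdala arrays read 735.6, 720.2 and 688.7 after stress and 587.6, 569.3 and 602.7 in handled rats. The hippocampal arrays read 559.9, 582.1 and 567.6 against 444.7, 469.9 and 433.9, and the cortical arrays 843.7, 796.1 and 778.2 against 694.1, 682.0 and 716.2. The groups overlapped in no region. Nr1d2 rose by 0.28 ± 0.06 in the amygdala (adjusted p = 0.0109) and by 0.33 ± 0.06 in the hippocampus (adjusted p = 0.00931), ratios of 1.22 and 1.27. The cortical difference of 0.20 ± 0.06 did not pass (adjusted p = 0.179), and the averaged change was 0.27 ± 0.035 (adjusted p = 3.80e-05). The amygdala call was lost without amygdala handled array 2 (adjusted p = 0.0593) and the hippocampal call without hippocampus stress array 2 (adjusted p = 0.0562), with differences of 0.26 and 0.32.

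Another probe set of Nr1d2 gave the same averaged direction. It read 322.9, 329.1 and 321.3 in stressed against 233.6, 222.6 and 267.1 in handled hippocampus, and 550.6, 503.7 and 484.1 against 415.9, 402.3 and 344.2 in cortex. Both regions were without overlap, and their differences of 0.41 and 0.39 had adjusted p-values of 0.0628 and 0.0683. In the amygdala its stress arrays, at 310.1, 364.3 and 374.0, overlapped the handled ones, at 331.9, 323.7 and 274.9 (difference 0.16, adjusted p = 0.473). Its averaged change was 0.32 ± 0.05 (adjusted p = 8.82e-04). The dimmest probe set of Nr1d2 had an averaged difference of 0.26 ± 0.10 that did not pass (adjusted p = 0.169).

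Only Dbp and Nr1d2 among the 10 genes had every stress array above every handled array in all 3 regions. Over all probe sets tested, 66 of 18625 did so, or 0.354%.

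**Figure D2:**
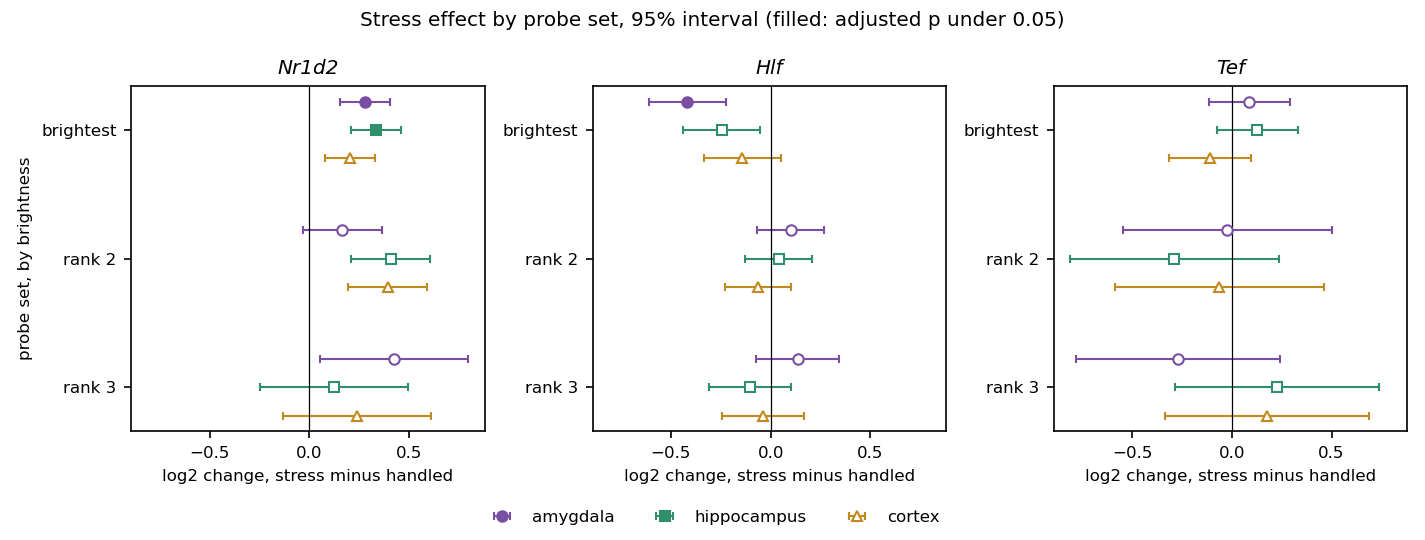
Stress minus handled difference in log2(intensity + 16), with its 95% interval, for each tested probe set of Nr1d2, Hlf and Tef, ordered from the brightest down; circles are amygdala, squares hippocampus and triangles cortex, and filled symbols passed at an adjusted p under 0.05. The estimates of Nr1d2 lie above 0 for all 3 probe sets, while of the 3 tested probe sets of Hlf only the brightest has estimates below 0 in every region, and none of Tef passed.

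Nr1d1, which encodes REV-ERB alpha and is partner to Nr1d2 in repressing Bmal1, was not measurably changed. Its amygdala arrays read 130.5, 138.9 and 120.8 after stress and 132.0, 128.1 and 137.5 in handled rats. The hippocampal arrays ran from 79.7 to 86.0 after stress against 80.8 to 107.0, and the cortical arrays from 114.1 to 134.8 against 130.1 to 140.6. Each region overlapped, and the averaged difference was -0.09 ± 0.07 (95% interval -0.229 to 0.047). That interval lies below the 0.20 to 0.343 of Nr1d2, but the change of these 2 genes was not tested against each other.

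The Period genes encode the repressors at the centre of the loop, and Per1 is also a direct target of glucocorticoid and cAMP signals. Per1 was dim, with amygdala arrays of 18.3, 59.8 and 61.0 after stress against 50.4, 92.4 and 76.0 in handled rats. Stress array 1 stood apart as the lowest, and the groups overlapped. Its amygdala difference of -0.58 ± 0.25 did not pass (adjusted p = 0.301), and without that array it was -0.19 ± 0.21 (adjusted p = 0.767). The hippocampal and cortical differences were 0.04 and 0.00, with standard errors of 0.25, and the averaged interval ran from -0.478 to 0.122. In a single region, a change of the size seen in Dbp could be missed at this precision.

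Per2 was brighter and far more precise than Per1. Its amygdala arrays read 290.3, 291.7 and 314.3 after stress and 289.4, 294.6 and 311.2 in handled rats, a difference of 0.00 ± 0.08. The hippocampal difference was 0.06 ± 0.08. In the cortex the stress arrays, at 308.9, 316.1 and 325.2, all lay above the handled arrays, at 273.0, 277.0 and 255.4, with a difference of 0.23 ± 0.08 that did not pass (adjusted p = 0.282). The averaged difference was 0.10 ± 0.05 (adjusted p = 0.256). The other probe set of Per2 was near the floor, at 4.58 to 10.8, and was not tested.

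Bhlhe41 encodes DEC2, an E-box repressor. The amygdala arrays read 764.0, 802.9 and 756.9 after stress and 671.2, 623.0 and 616.7 in handled rats, a rise of 0.28 ± 0.07 (adjusted p = 0.0326). The cortical arrays, at 540.1, 575.1 and 610.4 against 484.6, 490.9 and 491.0, did not overlap either (difference 0.23 ± 0.07, adjusted p = 0.199). The hippocampal arrays, at 521.9, 539.4 and 475.6 against 465.6, 426.9 and 483.8, overlapped by 1 array on each side (difference 0.15 ± 0.07, adjusted p = 0.425). The averaged rise was 0.22 ± 0.04 (95% interval 0.136 to 0.302, adjusted p = 0.00174). The amygdala call was lost without stress array 1 or 2 (adjusted p = 0.0511 and 0.126) or without handled array 2 or 3 (0.112 and 0.148).

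Bhlhe40 encodes DEC1, the closest relative of DEC2, and varied more between arrays. Its amygdala arrays read 155.1, 242.3 and 215.7 after stress and 190.6, 221.3 and 187.2 in handled rats, and its hippocampal arrays 152.4, 133.9 and 120.8 against 111.0, 127.2 and 121.5. Both regions overlapped. In the cortex the stress arrays, at 459.6, 409.0 and 403.2, all lay above the handled arrays, at 378.9, 340.2 and 376.7. The differences were 0.01, 0.16 and 0.21, none of which passed, and the averaged interval ran from -0.022 to 0.272.

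Npas2, which encodes a partner of BMAL1 that is prominent in forebrain, gave readings that leaned in different directions. The amygdala arrays read 499.4, 492.7 and 448.8 after stress and 358.3, 380.5 and 392.6 in handled rats, a rise of 0.34 ± 0.09 (adjusted p = 0.0458). The cortical arrays, at 489.0, 468.9 and 449.5 against 368.5, 436.5 and 403.6, did not overlap and differed by 0.21 ± 0.09 (adjusted p = 0.387). The hippocampal arrays, at 132.9, 133.7 and 144.8 against 152.7, 143.2 and 182.3, overlapped and differed by -0.19 ± 0.09 (adjusted p = 0.446). The stress effect in the amygdala was above that in the hippocampus by 0.53 ± 0.13, which did not pass over all probe sets (adjusted p = 0.151), and the averaged difference was 0.12 ± 0.05 (adjusted p = 0.211). The amygdala rise lay close to the threshold and was lost under 18 of 27 alternative settings, among them no filter on dim signals (adjusted p = 0.0631).

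By region, 4 of the 10 genes rose and 1 fell in the amygdala, where Dbp, Nr1d2, Bhlhe41 and Npas2 were the higher ones and Hlf the lower one. In the same contrast 0.456% of all probe sets were higher and 1.94% lower. In the hippocampus 2 of 10 rose, Dbp and Nr1d2, and 0 fell, against 0.102% and 0.258%. In the cortex 0 of 10 passed, against 0.134% higher and 0.268% lower, although 5 of the 10 had an unadjusted p under 0.05 in limma, against 10.2% of all probe sets. The counts moved with single arrays: the amygdala count of 5 was 2 without its stress array 1 or 2, 3 without its handled array 1, and 1 without its handled array 2 or 3. The hippocampal count of 2 was 0 without its stress array 2 and 1 without its handled array 1 or 2, and the cortical count was 1, from Dbp, without amygdala stress array 1 or 2 or hippocampus stress array 2. The median log2 differences of the 10 genes were 0.050, 0.096 and 0.205 in the 3 regions, against 0.0094, 0.0031 and 0.0012 over all probe sets tested. As the genes were chosen with earlier results known, these counts and medians describe them and do not test them as a set.

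The stress effect of no member could be called different between regions. The differences of the stress effect between amygdala and hippocampus, amygdala and cortex, and hippocampus and cortex gave 0 calls each among the 10 genes in limma, with 1 unadjusted p under 0.05 in each, against 8.06%, 9.76% and 5.63% of all probe sets. Over all probe sets 0.0483%, 0.129% and 0.0859% passed. The count of genes without overlap between groups was largest in the cortex, where 6 genes had all stress arrays higher and Tef had them all lower, against 12.1% and 11.2% of all probe sets. In the amygdala 4 were all higher and 1 all lower (8.13% and 8.46% of all probe sets), and in the hippocampus 3 and 1 (7.12% and 7.06%).

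**Figure D3:**
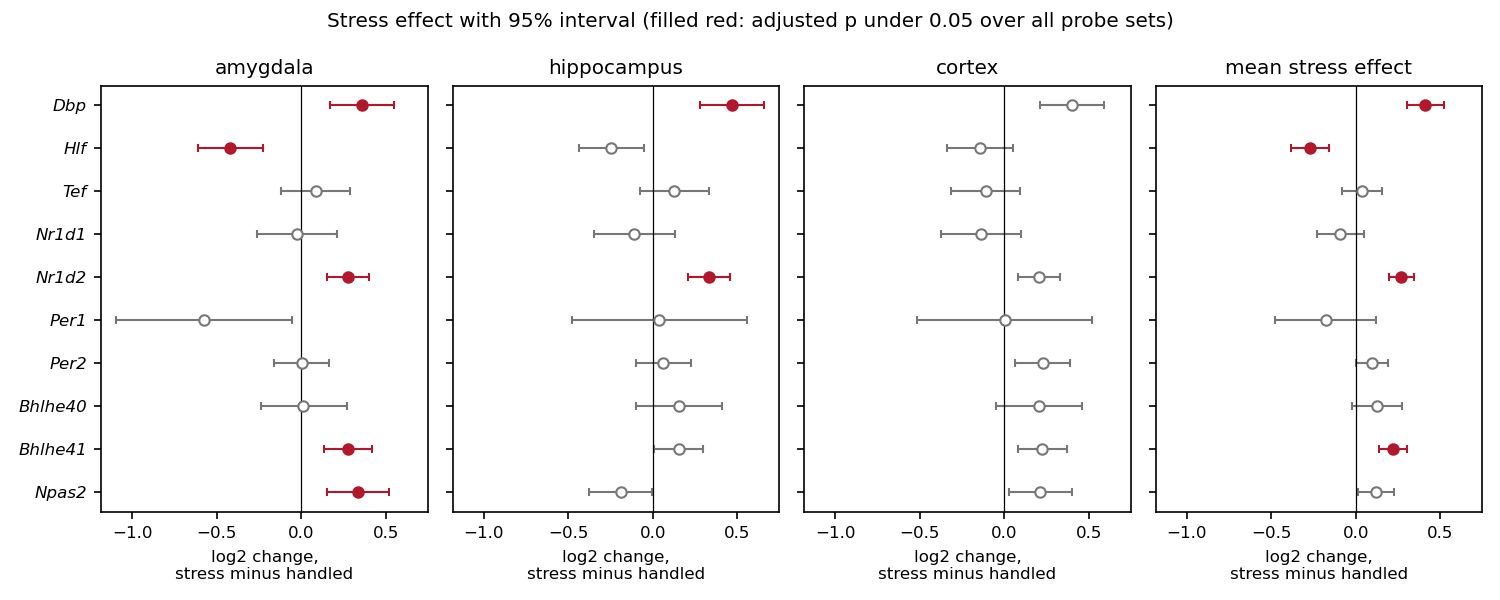
Stress minus handled difference in log2(intensity + 16), with its 95% interval, for the brightest probe set of each clock gene in amygdala, hippocampus, cortex and averaged over the 3 regions; filled red symbols passed at an adjusted p under 0.05 over all 18625 probe sets. Dbp, Nr1d2 and Bhlhe41 lie to the right of 0 and Hlf to the left in every panel, and the interval of Per1 is the widest.

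Markers of other cell types also differed between the groups. The labelled regions were borne out for the hippocampus, where the summed intensity of 5 hippocampal markers was 2239 to 2423 against 815.6 to 963.9 in the other regions; the amygdala and cortex labels were not checked in this way. In bulk tissue fewer cells of a type and less RNA per cell cannot be told apart. In the amygdala 3 of 11 striatal neuron markers were higher after stress (Ppp1r1b, Penk and Scn4b), against 0.456% of all probe sets, and the summed intensity of the 11 ran from 4723 to 5051 after stress against 3560 to 3897. In the hippocampus 2 of 7 choroid plexus and ependymal markers were higher (Ttr and Sostdc1), against 0.102% of all probe sets. The sums of the 7 were 3704 to 3946 against 1391 to 1533. Of the 7, 5 lay above 0 and 2 below, with a median log2 difference of 0.204. In the same region 2 of 10 oligodendrocyte markers were lower, against 0.258%, with sums of 18836.7 to 21102.4 against 22264.9 to 24699.3. In the cortex 7 of 11 meningeal fibroblast markers were lower, against 0.268% of all probe sets, with sums of 2102 to 2198 against 4802 to 5043. Other sums were also without overlap. The choroid plexus and ependymal sum was 916.1 to 990.4 against 750.8 to 787.8 in the amygdala. The meningeal sum was 1855 to 1909 against 2103 to 2296 in the hippocampus, although 6 of the 11 markers lay above 0. In the cortex the endothelial, oligodendrocyte and microglial sums were lower after stress. The hexokinase control, whose 3′ probes minus 5′ probes give a sign of RNA or labelling quality, stood at 1.23 ± 0.07 (SD, n = 3) on the log2 scale in stressed against 0.83 ± 0.08 in handled amygdala, 1.17 ± 0.15 against 1.02 ± 0.11 in hippocampus and 1.28 ± 0.12 against 1.11 ± 0.09 in cortex. The same measure of the GAPDH control was 0.45 ± 0.08 against 0.45 ± 0.04, 0.23 ± 0.13 against 0.26 ± 0.10 and 0.24 ± 0.04 against 0.29 ± 0.04 in these regions. That of beta-actin was 2.15 ± 0.24 against 2.07 ± 0.08, 1.61 ± 0.31 against 1.54 ± 0.23 and 1.61 ± 0.04 against 1.66 ± 0.05. Among these 3 controls, stress and handled arrays were without overlap only for hexokinase in the amygdala. The part of these in the clock gene results was not tested.

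Clock genes beyond the 10 were looked at in the same way. Of a further list of core clock genes, regulators and outputs, 27 were on the array and 19 passed the filter. In amygdala, hippocampus and cortex 0 of the 19 passed in limma, with 1, 1 and 3 at an unadjusted p under 0.05, against 13.7%, 10.9% and 10.2% of all probe sets. Of all probe sets 0.456%, 0.102% and 0.134% were called higher in these regions, and 1.94%, 0.258% and 0.268% lower. At such shares 0 calls among 19 genes say little. Averaged over regions 3 of the 19 had an unadjusted p under 0.05 in limma, against 18.1% of all probe sets. Only Rorb passed, where 1.59% of all probe sets were higher and 3.07% lower. Rorb encodes a nuclear receptor that shares binding sites with the REV-ERBs and activates through them. Rorb fell by 0.38 ± 0.10 (adjusted p = 0.0317), with amygdala stress arrays of 104.5, 104.4 and 146.7 against handled arrays of 193.1, 142.3 and 214.4. Those groups overlapped by 1 array on each side, and its amygdala difference alone, -0.56 ± 0.18, did not pass (adjusted p = 0.114). A dimmer probe set of Rorb also passed the filter and averaged 0.02 ± 0.11 (adjusted p = 0.947), so the fall was seen in 1 of 2 probe sets.

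Bmal1, the activator that REV-ERBs repress, had cortical readings of 97.8, 96.7 and 87.7 after stress and 152.1, 144.9 and 114.2 in handled rats. These did not overlap, and the difference of -0.47 ± 0.14 did not pass (adjusted p = 0.191). Its amygdala and hippocampal differences were 0.08 and -0.05, and its averaged difference was -0.15 ± 0.08 (adjusted p = 0.357). The averaged differences of its partner Clock and of the Cryptochrome repressors Cry1 and Cry2 were -0.13, -0.05 and 0.10, and those of Per3, of the D-box repressor Nfil3 and of Rora were 0.18, -0.04 and -0.10. None of these passed.

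Genes that glucocorticoid hormone or neuronal activity induces were looked at beside Per1, which both can drive. Of 13 glucocorticoid targets tested, 0 passed in any region or on average in limma, with 2, 1 and 1 at an unadjusted p under 0.05 in amygdala, hippocampus and cortex and 4 on average, where 18.1% of all probe sets had such a p. Their median averaged difference was -0.072, against 0.0065 over all probe sets tested. Of 15 activity-induced genes only Fos passed, which was lower in the cortex (-0.90, adjusted p = 0.0197) and on average (-0.50, adjusted p = 0.00464), contrasts in which 0.268% and 3.07% of all probe sets were lower. The median averaged difference of these 15 was -0.117, and 14 of them lay below 0, as did 47.6% of all probe sets.

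In handled rats most of the clock genes were lowest in the hippocampus. Hippocampus stood below cortex for 7 of 10 genes and above it for 0, against 25.9% of probe sets called in either direction. Amygdala stood above hippocampus for 8 of 10 and below for 0, against 28.4%. Amygdala against cortex gave 1 higher and 3 lower, against 14.7%. The first pair of contrasts shares the handled hippocampal arrays, so the counts are not separate evidence. The median differences were -0.561, 0.496 and -0.064 for these 3 contrasts, against -0.0078, 0.0164 and 0.0070 over all probe sets.

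The regional order differed from gene to gene. Bhlhe40 fell in steps from cortex, with a handled mean of 365.3 ± 21.8 (SD, n = 3), to amygdala at 199.7 ± 18.8 and hippocampus at 119.9 ± 8.22. Each step passed, with amygdala 0.82 below cortex (log2 -0.82, adjusted p = 4.19e-05) and 0.66 above hippocampus (log2 0.66, adjusted p = 2.07e-04). Hlf had the same order by its brightest probe set, with handled means of 1148, 732.4 and 454.0. Its next probe set in brightness kept that order, at 799.6, 409.5 and 315.3. The dimmest tested one had amygdala and hippocampus level, at 331.3 and 339.8 (adjusted p = 0.802 in limma), both below cortex at 652.3. Nr1d2 had the order of Bhlhe40 by its brightest probe set, with 697.5, 586.5 and 449.5, where the amygdala lay below cortex by a log2 difference of -0.24 (adjusted p = 0.0069). Its next probe set kept that order, at 387.5, 310.2 and 241.1. The dimmest one of Nr1d2 had amygdala and hippocampus level, at 42.6 and 44.0. Neither passed against cortex, at 62.1 (adjusted p = 0.13 and 0.097 in limma).

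Npas2 separated hippocampus from both other regions. Its handled mean was 159.4 ± 20.4 there, against 377.1 ± 17.4 in amygdala and 402.9 ± 34.0 in cortex. For Npas2 the contrast of amygdala and cortex did not pass in limma (log2 -0.09, adjusted p = 0.577). Dbp was also lowest in hippocampus, at 189.1 ± 7.3, against 308.3 ± 7.39 in amygdala and 294.5 ± 23.9 in cortex. The contrast of amygdala and cortex did not pass in limma for Dbp (log2 0.07, adjusted p = 0.712), nor for Nr1d1 and Per2 (adjusted p = 0.874 and 0.25). The handled arrays of Per2 were nonetheless without overlap, at 289.4, 294.6 and 311.2 in amygdala against 273.0, 277.0 and 255.4 in cortex.

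Bhlhe41 was the only member highest in the amygdala with a difference from both other regions that passed. Its handled mean was 637.0 ± 29.8 there, against 488.8 ± 3.66 in cortex (log2 0.37, adjusted p = 5.91e-04) and 458.7 ± 29.1 in hippocampus (log2 0.46, adjusted p = 1.76e-05). The contrast of hippocampus and cortex did not pass in limma (adjusted p = 0.386). The handled arrays were without overlap, though narrowly, at 484.6, 490.9 and 491.0 in cortex against 465.6, 426.9 and 483.8 in hippocampus. Tef was nearly level by its brightest probe set, with handled means of 497.5, 494.4 and 487.7 in amygdala, hippocampus and cortex. Its dimmest probe set read 67.2, 29.6 and 40.5, with amygdala above hippocampus (log2 0.91, adjusted p = 0.00743 in limma). Per1 passed in no regional contrast.

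**Figure D4:**
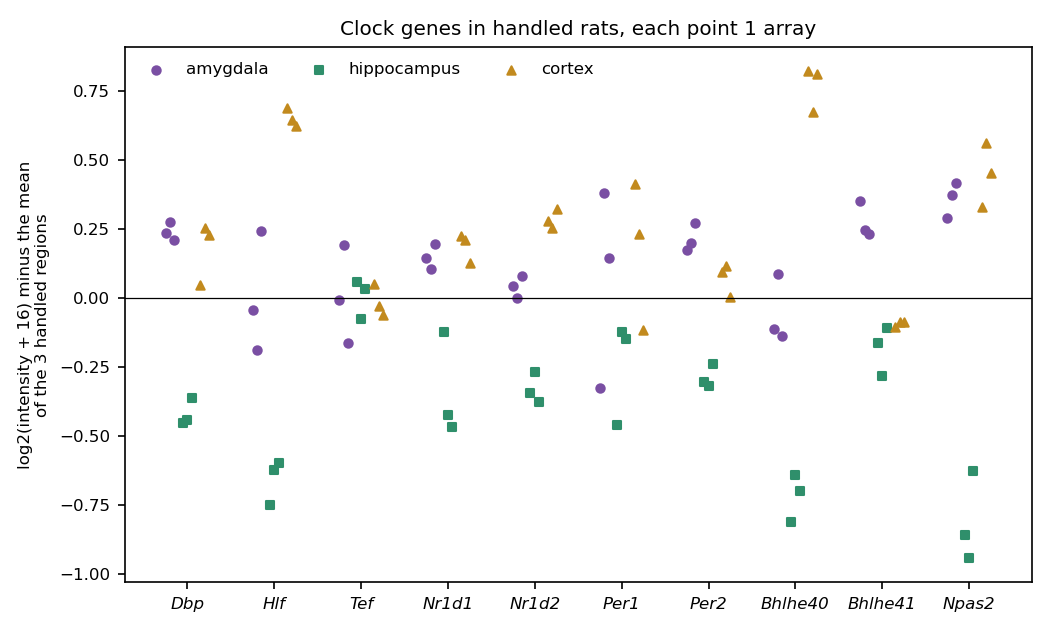
Log2(intensity + 16) of each clock gene on the 9 handled arrays, as the deviation from the mean of the 3 handled regional means; circles are amygdala, squares hippocampus and triangles cortex, and each symbol is 1 array. By the brightest probe set of each gene, the hippocampal arrays lie lowest for Dbp, Hlf, Nr1d1, Nr1d2, Per2, Bhlhe40 and Npas2. Bhlhe41 is highest in amygdala, and Tef is nearly level.

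The likeness of the genes across arrays was described by Pearson's r over the 18 arrays after each region's mean was subtracted, which leaves the stress effect in. All points share the arrays and their scaling. Among the 45 pairs of members r ran from -0.707 (Hlf and Nr1d2) to 0.866 (Dbp and Bhlhe41), with a median of 0.117. Dbp and Nr1d2 had an r of 0.864, which was -0.172 once the mean of each group was subtracted in place of the mean of each region. For Nr1d2 and Bhlhe41 the same values were 0.752 and -0.427. Dbp and Bhlhe41 kept 0.516. Per1 and Bhlhe40, neither of which passed for stress, had an r of 0.621 by region and 0.822 within groups. Amygdala stress array 1 was the lowest of its group for both, at 18.3 and 155.1. Of the 18 arrays it also had the lowest mean rank correlation with its own group (0.9562). The r without that array was not computed, so its weight in these values is not known.

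Outside the clock, the 5 of 10255 named genes most like Dbp by this measure were Wipf3 (r = 0.907), Cdc73 (0.901), Fbxw11 (0.895), Htr2c (0.892) and Zcchc7 (0.891). With group means subtracted, which takes the stress effect out, the r of these 5 in the same order was 0.560, 0.274, 0.826, 0.481 and 0.283. Htr2c encodes the serotonin 2C receptor, which the choroid plexus makes in abundance, and it rose by 0.45 on average after stress (adjusted p = 2.42e-05). Of 7 choroid plexus and ependymal markers, 4, 5 and 1 had stress differences above 0 in amygdala, hippocampus and cortex. Any link of these markers to Htr2c or Dbp was not tested. The 5 most like Nr1d2 were Cdc73 (0.888), Smc5 (0.884), Slc2a13 (0.879), Zcchc7 (0.877) and Srp72 (0.874), of which Cdc73 and Zcchc7 stood on both lists. Within groups these were 0.015, 0.478, -0.159, 0.103 and 0.573. The 5 most like Per1 were Rac1 (0.848), Galnt14 (0.826), Trip4 (0.823), Tpm2 (0.812) and Gca (0.805), and the averaged stress differences of these lay between -0.13 and 0.01 and did not pass. Their r within groups was 0.757 to 0.886. These values include amygdala stress array 1, on which Per1 read lowest, and were not computed without it.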

How the data were processed

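The authors' deposited values are linear intensities, 1 per probe set and array. On each array their mean without the lowest and highest 2% was 150.04 to 150.05, so the deposited intensities had been scaled to a common level; the summary software is not given in the sources used here. Median intensities were 49.1 to 56.4, and no pair of arrays was identical. Precision is limited by 3 arrays per group. Control probe sets (57) were left out, log2(intensity + 16) was taken, and probe sets with a mean under the 40th percentile were dropped, leaving 18625 of 31042. Limma 3.58.1 in R 4.3.3 fitted 6 group means with a variance trend (12 residual and 10.2 prior degrees of freedom), and the code was tested on simulated data. The platform annotation gives 20832 probe sets 1 symbol, 436 several and 9831 none. Members, lists and the naming rule (all probe sets of the 10 genes, listed clock genes that passed or are core, the 5 genes most like Dbp, Nr1d2 and Per1) were chosen with earlier results of these data known. Other offsets, filters, scalings, variance models, arrays and probe sets were tried.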

Additional observations from a re-analysis of the deposited data

Results flagged for a closer look

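Tef leaned in opposite directions in 2 regions: all 3 stress arrays lay above the handled arrays in the hippocampus and all 3 lay below them in the cortex. The difference between these stress effects was 0.237 on the log2 scale (standard error 0.139, hippocampus minus cortex) and did not pass in limma, with an unadjusted p of 0.103 and an adjusted p of 0.919.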

How the results depend on the processing

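The averaged stress effect called the same 4 genes (Dbp, Nr1d2, Bhlhe41 and Hlf) under every alternative run, with Dbp between 0.355 and 0.432, Nr1d2 between 0.252 and 0.287, Bhlhe41 between 0.203 and 0.236 and Hlf between -0.301 and -0.229. No member's call was reversed. Regional counts were less stable. Of the 5 members called in the amygdala, 2 remained after centring each array on its median, 1 without a variance trend, 0 when only amygdala arrays were fitted, and 1 to 5 when single arrays were left out. The 2 called in the hippocampus became 0 without a variance trend, 0 with hippocampal arrays alone, and 0 to 2 when single arrays were left out. The cortical count of 0 became 1, always Dbp, with an offset of 64, a filter at the 60th percentile, cortical arrays alone or a replicate block, and was 0 to 1 when single arrays were left out. Fits without an array of an arm leave 2 arrays there. Differences between regional stress effects gave 0 calls throughout. The handled contrasts kept 4, 7 and 8 calls, except that counting any probe set gave 9 for amygdala against hippocampus by adding Tef. Same-numbered arrays did not deviate together (45 correlations from -0.044 to 0.1, median 0.001). This gave no sign of pairing by number but cannot exclude shared rats, because the spread within a group could be technical. With the number as a replicate block the amygdala count was 4, without Npas2, the hippocampal count 2 and the averaged count 4. Median centring moved the median of all probe sets by less than 0.1. Signal over background limits Per1, which fell under the stricter filter, and the dim probe sets of Hlf, Tef, Nr1d2 and Per2.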
